A study of Mus musculus with 282 samples.

Results

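Livers of arrhythmically fed wild-type mice that had been injected with AZD8055 at dusk were compared with livers of arrhythmically fed wild-type mice that had received no injection. The members were all libraries that carry either arm's label: 18 of the dusk arm and 18 of the control arm, 36 of the 282 libraries of the series. Each arm was sampled at 6 Zeitgeber times (ZT, hours after lights on), ZT 2, 6, 10, 14, 18 and 22, with 3 biological replicates at each. All animals were male C57BL/6J, were caged singly with free water under 12 h of light and 12 h of dark, and had the same arrhythmic feeding, for which no schedule is stated. A dawn arm of 18 libraries, injected with the same drug and fed in the same way, entered the fit as well. RNA came from the lateral lobe of the liver, and a kit that reads the 3′ ends of polyadenylated RNA gave 1 library per sample.

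AZD8055 competes with ATP at the kinase domain of mTOR and so blocks both complexes that mTOR forms. In the liver mTORC1 senses amino acids and insulin and promotes protein synthesis, ribosome production and lipid synthesis while it holds back autophagy through ULK1 and the transcription factor TFEB. mTORC2 phosphorylates AKT, which keeps the FOXO transcription factors out of the nucleus when insulin is present. Arrhythmic feeding spreads meals over day and night and so takes away the daily signal that food intake normally gives to these pathways.

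Lights went off at ZT 12, so ZT 14 was the first sampling time after dusk, and the later times follow in the order ZT 18, 22, 2, 6 and 10. The labels give no dose, clock hour or number of injections. Nor is it stated how many dusks an animal sampled at a given ZT had passed since its dose. No arrhythmically fed arm that was injected with vehicle was analysed here. The drug, its vehicle and the handling of the animals therefore cannot be told apart in any difference below.

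Depth, in units of 1000000 reads, ranged from 6.57 to 11.5 in the dusk libraries (median 8.98) and from 7.09 to 11.8 in the controls (median 8.74). Values are reads per 1000000 (RPM) after rescaling all libraries to a common composition, and they are not divided by transcript length. Sums over marker lists and RNA classes are reads per 1000000 before that rescaling. A difference is a difference of log2(RPM + 0.5), and a gene was called at a Benjamini-Hochberg adjusted p below 0.05 in limma over 12428 genes. The summed level of 9 hepatocyte markers such as Alb had a median of 75983 RPM in the dusk arm and 83957 RPM in the controls, as the tissue label requires. Summed markers of lymphocytes had a median of 2.56 RPM and 3.81 RPM. In whole liver, fewer cells of a type and less RNA per cell cannot be told apart. Single libraries decided part of the counts. Without replicate 1 at ZT 14 the number of genes called at that time went from 2137 to 848, with 3.44% of all genes higher and 3.39% lower. Without replicate 2 at ZT 6 it went from 717 to 194 there, with 0.877% higher and 0.684% lower.

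The response was broad and changed in content through the day. Over the daily mean 6324 genes were called, 50.9% of those tested, with 3308 higher and 3016 lower after dusk AZD8055. Only 589 of the higher and 832 of the lower genes differed by 1.5-fold or more. At single times 2137 genes were called at ZT 14 (17.2%), 2383 at ZT 18 (19.2%), 2491 at ZT 22 (20.0%), 1525 at ZT 2 (12.3%), 717 at ZT 6 (5.77%) and 306 at ZT 10 (2.46%). With all libraries they were most frequent at ZT 14, 18 and 22, in the dark phase, as the plot of called genes by time shows. Without dusk ZT 14 replicate 1 the 848 genes called at ZT 14 were fewer than the 1655 at ZT 2. ZT 14 then had fewer dusk libraries than ZT 2, so these 2 counts are not at equal sample size. At ZT 14 alone, and at no other time, 434 genes were called higher (3.49%) and 390 lower (3.14%), and without dusk ZT 14 replicate 1 these counts were 151 (1.21%) and 137 (1.10%). Genes called in the same direction at all 6 times numbered 31 higher (0.249%) and 40 lower (0.322%), and without dusk ZT 6 replicate 2 they numbered 28 (0.225%) and 19 (0.153%). The size of the difference depended on time by the interaction test for 686 genes (5.52%). At ZT 14 it departed from the mean difference at the other 5 times for 493 genes (3.97%), upward for 285 (2.29%) and downward for 208 (1.67%).

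**Figure D1:**
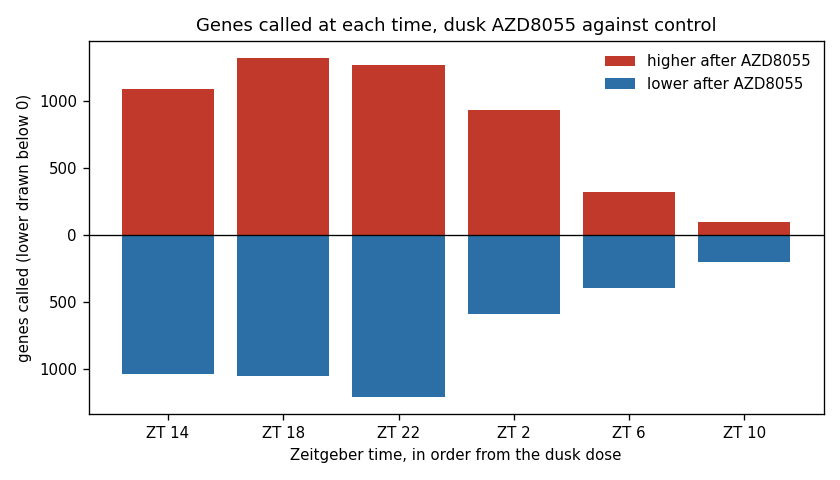
Number of genes called higher (red, above 0) and lower (blue, drawn below 0) after dusk AZD8055 at each sampling time, in order from dusk. Between 1043 and 1328 genes were called in each direction at ZT 14, 18 and 22, against 100 higher and 206 lower at ZT 10.

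The share of called genes that were higher depended on the scale. It was 52.3% over the daily mean, 51.2% at ZT 14, 55.7% at ZT 18, 51.2% at ZT 22, 61.4% at ZT 2, 45.0% at ZT 6 and 32.7% at ZT 10. On the scale of the deposited values the same shares were 63.5%, 66.1%, 64.5%, 63.6%, 73.3%, 68.6% and 59.9%. The directions of single genes named below are relative to the median gene, whose difference lay between -0.0087 and 0.015 at each of the 6 times.

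ZT 14 held a rise of insulin and FOXO target genes, of which only Irs2 was still called higher at ZT 18. Igfbp1, which encodes a secreted binding protein of the insulin-like growth factors and is normally held low by insulin, measured 9633, 5237 and 1153 RPM in the 3 dusk libraries and 45.8, 52.7 and 85.4 RPM in the 3 controls. Every dusk library lay far above every control, although the dusk libraries differed widely among themselves. The log2 difference was 6.02 (SE 0.75, adjusted p = 2.7e-07). At ZT 18 the dusk libraries held 20.6, 10.1 and 60.1 RPM and the controls 14.4, 28.1 and 64 RPM, and the groups overlapped. The ZT 14 difference exceeded the mean difference at the other 5 times by 5.97 (SE 0.82, adjusted p = 3.9e-06).

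Irs2, the insulin receptor substrate that passes the insulin signal on to AKT in hepatocytes, measured 85.4, 51.8 and 43.5 RPM after AZD8055 and 7.97, 7.78 and 9.79 RPM in control at ZT 14. Again no dusk library came near a control, and the log2 difference was 2.70 (SE 0.41, adjusted p = 9.8e-06). The promoters of both genes carry the core of the insulin response sequence that FOXO factors bind, and they are shown because these genes headed the early rise. The Igfbp1 promoter lies at chr11:7197537-7197786 on the plus strand of chromosome 11 and the Irs2 promoter at chr8:11008930-11009179 on the minus strand of chromosome 8, 250 bases upstream of the start of a protein-coding gene in RefSeq's GRCm38.p6. Capitals mark CAAAACA or its reverse complement TGTTTTG.
Igfbp1 promoter: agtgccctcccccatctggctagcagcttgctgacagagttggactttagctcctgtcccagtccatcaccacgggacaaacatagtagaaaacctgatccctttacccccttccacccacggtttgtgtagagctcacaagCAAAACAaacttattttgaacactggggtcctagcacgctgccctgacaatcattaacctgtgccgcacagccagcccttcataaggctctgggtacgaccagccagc
Irs2 promoter: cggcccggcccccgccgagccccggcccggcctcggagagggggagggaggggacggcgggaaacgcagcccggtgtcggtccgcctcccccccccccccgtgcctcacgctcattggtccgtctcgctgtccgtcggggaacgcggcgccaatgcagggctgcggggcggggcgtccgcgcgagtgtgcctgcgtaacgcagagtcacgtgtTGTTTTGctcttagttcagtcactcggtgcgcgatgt
The match began 108 bases before the start in Igfbp1 and 37 bases before it in Irs2. This motif, searched on both strands, was present in 5.56% of 32851 promoters of the same length. Of the 25 insulin and FOXO targets tested, 20 had a promoter in the table, and 4 of these (G6pc, Igfbp1, Irs1 and Irs2) held a match. A match describes the letters only and is not evidence of binding.

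Ppp1r3g, a glycogen-targeting subunit of protein phosphatase 1 that is known to be induced by fasting, showed the largest rise at ZT 14 outside the acute phase genes and metallothioneins. Its level was 560.0, 207 and 151 RPM in the dusk libraries and 1.74, 0.656 and 5.47 RPM in the controls, a log2 difference of 6.71 (SE 0.56, adjusted p = 2.7e-11). The lowest dusk library stood well above the highest control. The excess over the other times was 6.64 (SE 0.61, adjusted p = 1.1e-09). No match to the insulin response sequence was found in the 250 bases at chr13:35967656-35967905, before a start of this gene. That stretch lies inside the span of the gene in GRCm38.p6, which runs from 35958824 to 35970388. The bases before 35958824 were not searched.

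Ppargc1a, a coactivator that drives gluconeogenesis and mitochondrial genes during fasting, rose from 21.3, 15.8 and 22 RPM in control to 92.3, 89.9 and 76.1 RPM, with no overlap and dusk replicates close to each other. The log2 difference was 2.11 (SE 0.28, adjusted p = 1.5e-06). At ZT 18 the direction was the opposite. There the dusk libraries held 3.78, 5.89 and 5.54 RPM against 12.1, 17.2 and 17.7 RPM, a log2 difference of -1.54 (SE 0.28, adjusted p = 1.2e-04). The ZT 14 difference exceeded that at the other times by 2.52 (SE 0.31, adjusted p = 5.6e-07).

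Other members of the insulin and FOXO list followed the same course in part. At ZT 14, 7 of its 25 genes were higher and 3 lower, where 8.80% of all genes were higher and 8.39% lower, and the list's median difference was 0.35 against 0.0022 for all genes. FOXO transcription factor genes were among them: Foxo1 rose by 1.05 (SE 0.16, adjusted p = 8.6e-06) and Foxo3 by 1.17 (SE 0.21, adjusted p = 1.7e-04). So were Trib1 (1.06), which lowers lipid synthesis, and Sik1 (2.11), a kinase that restrains gluconeogenesis. Pik3r1, the regulatory subunit of phosphoinositide 3-kinase, fell by 1.39 (SE 0.20, adjusted p = 3.0e-06) on the log2 scale, and Cited2 and Sesn3 had differences of -1.38 and -0.87. The gluconeogenic enzyme genes G6pc and Pck1 had estimates of 1.09 and 1.01 and were not called at ZT 14 (adjusted p = 0.072 and 0.22). At ZT 18, 9 members were lower and 3 higher, where 8.49% of all genes were lower and 10.7% higher. Depp1, a FOXO target that is induced by fasting, was the furthest down, from 37.3, 23.8 and 21.3 RPM to 2.05, 3.26 and 4.48 RPM, a log2 difference of -2.91 (SE 0.58, adjusted p = 3.7e-04). When dusk ZT 14 replicate 1 was left out the ZT 14 counts of the list were 7 higher and 1 lower, where 3.44% and 3.39% of all genes were. Cited2 and Sesn3 were then no longer called (adjusted p = 0.066 and 0.32).

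**Figure D2:**
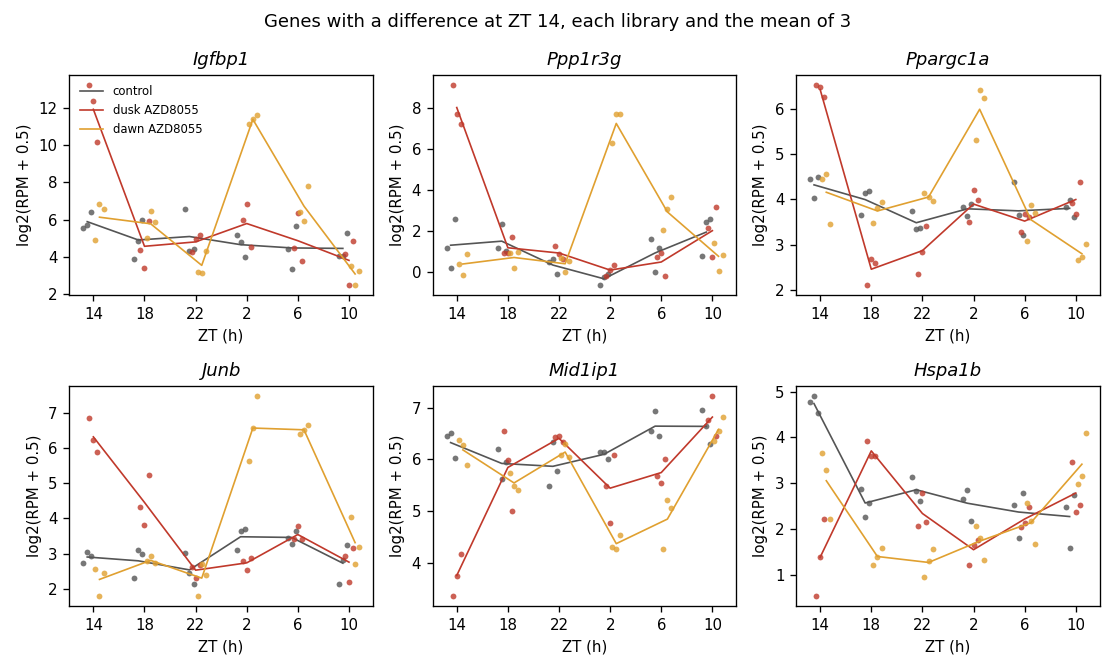
Levels of 6 genes as log2(RPM + 0.5) against ZT in order from dusk, with 1 point per library and a line through the mean of 3 libraries, for control (grey), dusk AZD8055 (red) and dawn AZD8055 (yellow). At ZT 14 the dusk libraries lie above the controls for Igfbp1, Ppp1r3g, Ppargc1a and Junb and below them for Mid1ip1 and Hspa1b, and the dawn libraries stand apart in the same direction at ZT 2 for all 6 genes.

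Immediate early genes, which encode transcription factors and feedback proteins that respond within minutes to stress, cytokines or growth factors, were among the genes that rose at ZT 14. Of 16 members tested, 12 were higher and 0 lower, where 8.80% and 8.39% of all genes were, with a median difference of 1.37. Junb, an AP-1 subunit, measured 115, 74.8 and 58.5 RPM against 6.10, 7.78 and 7.15 RPM in control, a log2 difference of 3.42 (SE 0.35, adjusted p = 5.7e-09). It remained higher at ZT 18, where the dusk libraries held 19.7, 13.5 and 36.9 RPM against 4.43, 8.11 and 7.37 RPM (1.66, SE 0.35, adjusted p = 8.1e-04), and the groups did not overlap at either time. From ZT 22 to ZT 10 no difference in Junb was called, and its ZT 14 excess over the other times was 3.22 (SE 0.39, adjusted p = 4.7e-07).

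Gadd45g, a growth arrest and DNA damage response gene, showed the widest rise of the list, from 1.37, 4.69 and 6.73 RPM to 307, 136 and 48.1 RPM (4.94, SE 0.72, adjusted p = 5.8e-06). All 3 dusk libraries exceeded all controls by a wide margin. Maff, Egr1, Btg2 and Jun rose as well, by 3.42, 2.69, 2.66 and 1.37. Outside the list, the neutrophil-attracting chemokine gene Cxcl1 rose from 6.85, 4.88 and 5.89 RPM to 118, 229 and 105 RPM (4.49, SE 0.73, adjusted p = 3.1e-05). Its dusk libraries again lay above every control. At ZT 22 and ZT 2 the list had no member that was higher and 2 and 2 that were lower, where 9.78% and 4.73% of all genes were lower. Without dusk ZT 14 replicate 1 the list's ZT 14 counts were 6 higher and 0 lower, where 3.44% and 3.39% of all genes were, and Jun was not called (adjusted p = 0.062).

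Fewer calls were made among the genes that the transcription factor ATF4 induces when amino acids are scarce or translation is stressed. At ZT 14, 6 of 16 were higher and 0 lower, where 8.80% of all genes were higher. Without dusk ZT 14 replicate 1 only 1 was higher, where 3.44% of all genes were, Trib3 and Ddit4 no longer being called (adjusted p = 0.067 and 0.31). Chac1, which breaks down glutathione, rose by 3.51 (SE 0.57, adjusted p = 2.8e-05) and Trib3, an inhibitor of AKT, by 1.64 (SE 0.38, adjusted p = 0.0025). Ddit4, which encodes the mTORC1 inhibitor REDD1, measured 315, 238 and 33.2 RPM against 30.6, 48.8 and 45.3 RPM. Dusk replicate 3 fell within the control range, although the difference of 1.73 (SE 0.60, adjusted p = 0.04) was called. Asns, the asparagine synthetase gene, had a difference of 0.057 at ZT 14 and rose at ZT 2 instead, by 2.64 (SE 0.84, adjusted p = 0.031). Atf4 itself was not called at any of the 6 times.

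Genes of the mTOR pathway were called in both directions. Of 34 genes for mTOR complex subunits and their upstream regulators, 6 were higher and 1 lower at ZT 14, where 8.80% and 8.39% of all genes were, and 9 and 6 over the daily mean, where 26.6% and 24.3% of all genes were. The kinase gene Mtor had a difference of 0.0097 at ZT 14 and rose at ZT 18 (0.66, SE 0.23, adjusted p = 0.041) and ZT 22 (0.65, SE 0.23, adjusted p = 0.043). Flcn and Fnip1, whose products form a complex that acts on the Rag GTPases, rose at ZT 14 by 0.90 (SE 0.25, adjusted p = 0.01) and 0.86 (SE 0.19, adjusted p = 0.0015). Fnip1 was lower at ZT 22 (-0.82, SE 0.19, adjusted p = 0.0021). Lamtor4, a subunit of the Ragulator scaffold that holds mTORC1 at the lysosome, was the 1 member called at all 6 times, with differences from 0.39 at ZT 18 to 0.78 at ZT 2. Eif4ebp1, which encodes the translational repressor that mTORC1 inactivates, rose by 0.62 (SE 0.17, adjusted p = 0.01) at ZT 14. Without dusk ZT 14 replicate 1 the ZT 14 counts were 3 higher and 0 lower, where 3.44% and 3.39% of all genes were. In that setting Eif4ebp1 and the ZT 18 rise of Mtor were not called (adjusted p = 0.13 and 0.051). Without control ZT 22 replicate 2 the ZT 22 rise of Mtor was not called (adjusted p = 0.22).

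Some lysosomal and autophagy genes, many of which TFEB activates, rose at the first 2 times. Of 35 tested, 10 were higher and 0 lower at ZT 14, where 8.80% and 8.39% of all genes were, and 10 and 1 at ZT 18, where 10.7% and 8.49% were. Ulk1, the kinase that starts autophagy, measured 139.6, 129.5 and 143 RPM against 78.7, 84.5 and 87.4 RPM at ZT 14 and 181, 178 and 210.3 RPM against 67.9, 64.9 and 62.5 RPM at ZT 18. The dusk libraries were above all controls at both times, with log2 differences of 0.72 (SE 0.20, adjusted p = 0.012) and 1.54 (SE 0.20, adjusted p = 6.2e-07). Map1lc3b, which encodes the autophagosome protein LC3B, rose by 1.13 (SE 0.19, adjusted p = 4.8e-05), and the cathepsin gene Ctsl by 0.90 (SE 0.20, adjusted p = 0.0018). Some members turned later: Gabarapl1 was 0.77 at ZT 14 and -1.02 at ZT 22, both called. The autophagy receptor gene Calcoco1 was lower at ZT 22, from 47.4, 53.8 and 56 RPM to 16.2, 9.57 and 13.9 RPM (-1.97, SE 0.49, adjusted p = 0.0037). Its 3 dusk libraries lay below the 3 controls there. With dusk ZT 14 replicate 1 left out the ZT 14 counts were 5 higher and 1 lower, where 3.44% and 3.39% of all genes were, and Ulk1 and Gabarapl1 were not called at that time (adjusted p = 0.057 and 0.18).

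Mid1ip1 and Angptl8, which feeding induces in lipid metabolism, fell at ZT 14. Mid1ip1, an activator of acetyl-CoA carboxylase, went from 86.5, 90.1 and 64.9 RPM in control to 9.71, 12.9 and 17.5 RPM (-2.57, SE 0.28, adjusted p = 2.4e-08). Every dusk library was below every control, and the ZT 14 difference departed from that at the other times by -2.39 (SE 0.31, adjusted p = 1.6e-06). Angptl8, a feeding-induced hormone that directs fat to adipose tissue, measured 4.72, 4.72 and 4.85 RPM against 12.9, 23 and 40.2 RPM (-2.15, SE 0.50, adjusted p = 0.0023). At ZT 22 its direction was reversed, with 84.7, 72.3 and 42.5 RPM against 9.46, 19.5 and 16.9 RPM (2.09, SE 0.50, adjusted p = 0.0027), and the groups did not overlap at either time. The departure of ZT 14 from the other times was -3.16 (SE 0.55, adjusted p = 1.9e-04). The fatty acid synthesis list as a whole had 2 members higher and 1 lower of 19 at ZT 14, where 8.80% and 8.39% of all genes were. Over the daily mean it had 2 and 8, where 26.6% and 24.3% were. Fasn, the fatty acid synthase gene, had a ZT 14 estimate of -1.21 that was not called (adjusted p = 0.12). Thrsp, a lipogenic cofactor gene, fell by 1.13 (SE 0.23, adjusted p = 8.8e-05) over the day. Angptl4, a lipase inhibitor induced by fasting, rose by 1.43 (SE 0.36, adjusted p = 0.0052) at ZT 14 and was not called without dusk replicate 1 (adjusted p = 0.051).

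Heat shock chaperone genes, the targets of HSF1, included many that fell at ZT 14. Of 22 members, 0 were higher and 13 lower, where 8.39% of all genes were lower, with a median difference of -0.74. Hspa1b, an inducible HSP70 gene, measured 0.944, 2.12 and 4.18 RPM in the dusk libraries and 26.8, 29.6 and 22.6 RPM in the controls (-3.36, SE 0.36, adjusted p = 1.2e-08). ZT 14 was also the time at which the controls were highest, so that the dusk arm lacked the control arm's peak. At ZT 18 the dusk libraries were the higher ones, with 14.6, 11.6 and 11.6 RPM against 6.84, 4.31 and 5.40 RPM (1.14, SE 0.36, adjusted p = 0.022). The ZT 14 difference departed from the others by -3.35 (SE 0.39, adjusted p = 3.2e-07). Hspa1a and Hspa1b are near-identical, so that reads may have been split between them, and Hspa1a moved in the same directions (-1.64 at ZT 14 and 1.31 at ZT 18). The co-chaperone gene Bag3 fell by 1.57 (SE 0.21, adjusted p = 1.8e-06). Hspa8, the constitutive HSP70 gene, and Hsp90aa1, an HSP90 gene, had called differences of -1.14 (SE 0.20, adjusted p = 1.1e-04) and -0.81 (SE 0.21, adjusted p = 0.0066). Hsf1 itself was not called at ZT 14 (0.62). The counts were 0 higher and 12 lower without dusk ZT 14 replicate 1, where 3.44% and 3.39% of all genes were.

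At ZT 18 cholesterol synthesis genes, the targets of SREBP2, included many that fell. Of 26 members, 16 were lower and 0 higher, where 8.49% of all genes were lower, and the list's median difference was -1.03. Hmgcs1, an enzyme gene at the entry of the pathway, measured 60.3, 53.3 and 50.9 RPM in the dusk libraries and 258, 358 and 182 RPM in the controls (-2.22, SE 0.37, adjusted p = 3.6e-05). No dusk library reached a control level. At ZT 14 the same gene had 81.9, 166 and 109 RPM against 251, 169.8 and 145 RPM, with overlapping groups.

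The fall extended along the pathway. The squalene epoxidase gene Sqle and the sterol demethylation gene Msmo1 had called differences of -1.99 (SE 0.53, adjusted p = 0.0061) and -2.29 (SE 0.33, adjusted p = 2.6e-06). So did genes that control the pathway, the sterol sensor Insig1 (-2.01) and Srebf2 itself (-0.78). At ZT 22, 9 members were lower and 0 higher, where 9.78% of all genes were lower. Without control ZT 22 replicate 2 the number lower was 6, where 9.19% of all genes were. By ZT 2 the counts were 1 higher and 1 lower, where 7.54% and 4.73% of all genes were. Idi1, an isomerase gene of the pathway, was lower at ZT 14, 18, 22 and 10 and had a daily mean difference of -1.38 (SE 0.18, adjusted p = 5.8e-08).

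Many ribosome biogenesis genes, which mTORC1 is known to promote, rose at ZT 18. Of 37 members, 17 were higher and 1 lower, where 10.7% of all genes were higher, with a median difference of 0.52. Rrp1b, a nucleolar processing factor, measured 14.6, 14.5 and 19.8 RPM against 6.17, 5.95 and 5.29 RPM (1.40, SE 0.21, adjusted p = 6.3e-06), with no overlap. The rRNA methyltransferase gene Nop2 rose from 8.45, 5.07 and 6.12 RPM to 18.4, 15.2 and 19 RPM (1.38, SE 0.28, adjusted p = 4.5e-04). All 3 of its dusk libraries again exceeded the controls. Heatr1 rose by 1.29 (SE 0.26, adjusted p = 3.2e-04) and the RNA polymerase I subunit gene Polr1b by 1.14 (SE 0.25, adjusted p = 9.9e-04). At ZT 14 the list had 2 members higher and 2 lower, where 8.80% and 8.39% of all genes were. Dkc1, the pseudouridine synthase gene, was the member lower at ZT 18 (-0.49).

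Cytosolic ribosomal proteins and translation factors, whose mRNAs carry the 5′ motif that mTORC1 controls at the level of translation, included many that were higher by small amounts. Over the daily mean 31 of 48 were higher and 5 lower, where 26.6% of all genes were higher, and the list's median difference was 0.29. The largest counts were at ZT 22 (17 higher and 1 lower) and ZT 2 (14 and 2). The shares of all genes were 10.3% higher and 9.78% lower at ZT 22, and 7.54% and 4.73% at ZT 2. Without control ZT 22 replicate 2 the ZT 22 counts were 9 higher and 1 lower, where 8.09% and 9.19% of all genes were. At ZT 6 the counts were 9 higher and 1 lower, where 2.60% and 3.17% of all genes were. Without dusk ZT 6 replicate 2 the ZT 6 counts were 0 higher and 1 lower, where 0.877% and 0.684% were. Rpl3 had a daily mean difference of 0.67 (SE 0.084, adjusted p = 1.8e-08) and Rplp0 of 0.49 (SE 0.058, adjusted p = 4.3e-09). Pabpc1, the cytoplasmic poly(A)-binding protein gene, and Eif4b, an initiation factor gene, were lower, with daily mean differences of -0.54 (SE 0.081, adjusted p = 4.9e-07) and -0.48 (SE 0.058, adjusted p = 6.7e-09). These values are RNA levels, and translation was not measured.

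Endoplasmic reticulum (ER) chaperone genes were called higher most often at ZT 22 and ZT 2 among the single times. The list counted 8 higher and 1 lower of 29 at ZT 18, 13 and 0 at ZT 22, 12 and 0 at ZT 2 and 7 and 0 at ZT 6. The shares of all genes that were higher at these times were 10.7%, 10.3%, 7.54% and 2.60%. At ZT 14 the list had 1 member higher and 3 lower, where 8.80% and 8.39% of all genes were. The higher one was Herpud1 (1.43, SE 0.28, adjusted p = 3.5e-04), a component of ER-associated degradation. Without dusk ZT 6 replicate 2 the ZT 6 counts were 2 higher and 0 lower, where 0.877% and 0.684% of all genes were.

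Creld2, an ER-resident factor that assists disulfide formation and is a marker of ER stress, measured 58.4, 85.3 and 65 RPM against 10.9, 9.99 and 7.45 RPM at ZT 22 (2.82, SE 0.36, adjusted p = 6.0e-07). The dusk libraries were above every control by a wide margin. At ZT 14 they held 6.74, 8.26 and 6.55 RPM against 7.35, 14.1 and 9.15 RPM, with overlap, and the ZT 14 difference departed from the others by -1.97 (SE 0.39, adjusted p = 0.0012). Sdf2l1, a cofactor of the chaperone BiP, rose by 2.69 (SE 0.54, adjusted p = 5.6e-04) at ZT 22 and by 2.73 at ZT 2. Hspa5, which encodes BiP itself, rose from 914, 621 and 696 RPM to 1643, 2146 and 2006 RPM (1.39, SE 0.24, adjusted p = 7.4e-05), and its groups did not overlap. Hyou1 and Manf rose by 1.63 (SE 0.23, adjusted p = 4.1e-06) and 1.48 (SE 0.34, adjusted p = 0.0021). Dnajb9 and Xbp1, which stand at the head of the response as an IRE1 regulator and as the transcription factor it activates, rose at ZT 18, with no call at the other times (1.99, SE 0.31, adjusted p = 1.3e-05 and 1.23, SE 0.21, adjusted p = 5.3e-05).

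The promoters of Creld2 and Hspa5 hold the full ER stress response element and were chosen for display after the values were seen. Sdf2l1, Hyou1 and Manf had ZT 22 differences of 2.69, 1.63 and 1.48, above the 1.39 of Hspa5. They are not among the 8 genes in which the element was found. The Creld2 promoter is at chr15:88819396-88819645 on the plus strand of chromosome 15 and the Hspa5 promoter at chr2:34771840-34772089 on the plus strand of chromosome 2, again the 250 bases before a protein-coding gene's start in RefSeq's GRCm38.p6. Capitals mark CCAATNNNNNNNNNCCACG, in which N is any base, or its reverse complement.
Creld2 promoter: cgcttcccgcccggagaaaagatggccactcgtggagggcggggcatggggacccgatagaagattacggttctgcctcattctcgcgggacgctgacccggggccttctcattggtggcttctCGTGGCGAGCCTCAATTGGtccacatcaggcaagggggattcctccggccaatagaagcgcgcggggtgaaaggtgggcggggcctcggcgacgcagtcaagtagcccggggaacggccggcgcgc
Hspa5 promoter: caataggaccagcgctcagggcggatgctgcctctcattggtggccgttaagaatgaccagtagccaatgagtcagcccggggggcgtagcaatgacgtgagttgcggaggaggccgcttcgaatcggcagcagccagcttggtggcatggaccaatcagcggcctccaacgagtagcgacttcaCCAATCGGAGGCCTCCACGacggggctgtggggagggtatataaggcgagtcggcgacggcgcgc
The match lay 126 to 108 bases before the start in Creld2, where it read in the reverse direction, and 65 to 47 bases before it in Hspa5. Only 37 of 32851 promoters, 0.113%, held this motif on either strand. It was found in 8 of the 24 genes of the list that had a promoter in the table: Calr, Canx, Creld2, Dnajc3, Hsp90b1, Hspa5, Pdia6 and Syvn1. Those 8 genes did not move together, since at ZT 22 Canx and Hsp90b1 had differences of -0.31 and 0.53 and were not called.

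The acute phase genes and metallothioneins had many members higher at every one of the 6 times. Of 24 members, 21 were higher and 0 lower over the daily mean, where 26.6% and 24.3% of all genes were, with a median difference of 1.96. The counts at single times ran from 12 higher at ZT 10, where 0.805% of all genes were higher, to 19 at ZT 14, ZT 18 and ZT 6, with none lower. The shares of all genes that were higher at ZT 14, ZT 18 and ZT 6 were 8.80%, 10.7% and 2.60%. These counts and shares are with all libraries. Acute phase proteins are secreted by hepatocytes in inflammation, mainly under interleukin-6 and the transcription factor STAT3.

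Saa2, a serum amyloid A gene, measured 6671, 6528 and 1553 RPM in the dusk libraries and 6.72, 12 and 10.8 RPM in the controls at ZT 14. At ZT 10, the last time in order from dusk, it still measured 9292, 4988 and 505 RPM against 13.8, 6.55 and 10.9 RPM. Dusk replicate 3 was the lowest of its group at both times, and every dusk library exceeded every control. The daily mean difference was 8.50 (SE 0.41, adjusted p = 3.4e-20), and that of Saa1, a near-identical copy with which reads may be shared, was 7.58. Saa1 and Saa2 together made up a median of 1.32% of a dusk library's reads and 0.00342% of a control's. Lcn2, which encodes an iron-scavenging secreted protein, measured 179, 277 and 68.3 RPM against 1.49, 0.844 and 0.737 RPM at ZT 14 (7.09, SE 0.38, adjusted p = 7.7e-19 over the daily mean).

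Smaller rises were found for Orm2 (3.27 over the daily mean), Serpina3n (2.98), Apcs (2.97), Itih4 (2.31) and the haptoglobin gene Hp (2.04). None of these 5 was called by the interaction test (adjusted p from 0.37 for Orm2 to 0.83 for Itih4). The 3 fibrinogen chain genes differed by time: Fgb was 0.73 at ZT 14, 1.95 at ZT 18 and 0.47 at ZT 10. Socs3, the feedback inhibitor of STAT3, rose at ZT 14 by 3.23 (SE 0.49, adjusted p = 9.8e-06) and was at -0.19 at ZT 2. Cp and Hamp, the genes of ceruloplasmin and hepcidin, were the 2 members not called at any time or in the daily mean.

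The metallothioneins Mt1 and Mt2, which bind zinc and copper and respond to metals, glucocorticoids and inflammation, peaked at ZT 18. Mt1 measured 9146, 8027 and 12750.0 RPM in the dusk libraries and 10.3, 12.3 and 51.4 RPM in the controls at ZT 18, and 640.4, 458 and 349.8 RPM against 31.1, 17.2 and 21.1 RPM at ZT 10. The groups stayed apart at both times, with log2 differences of 8.99 (SE 0.73, adjusted p = 1.8e-11) and 4.35 (SE 0.73, adjusted p = 6.4e-04). Mt2 followed with 9.02 at ZT 18 and 5.20 at ZT 10. Their promoters are shown because these genes had the largest differences at ZT 18. The Mt1 promoter is at chr8:94178839-94179088 and the Mt2 promoter at chr8:94172368-94172617, both on the plus strand of chromosome 8 in RefSeq's GRCm38.p6, 250 bases before a start of a protein-coding gene. The span of Mt1 in the same build begins at 94178883, so most of its stretch lies inside the gene. The bases before 94178883 were searched only in part. Capitals mark the core of the metal response element, TGCACNC or TGCGCNC, on either strand.
Mt1 promoter: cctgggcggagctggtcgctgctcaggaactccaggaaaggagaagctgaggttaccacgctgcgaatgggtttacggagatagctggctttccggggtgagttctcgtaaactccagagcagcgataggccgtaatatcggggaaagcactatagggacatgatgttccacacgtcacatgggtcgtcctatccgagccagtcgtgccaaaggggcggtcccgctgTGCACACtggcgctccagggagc
Mt2 promoter: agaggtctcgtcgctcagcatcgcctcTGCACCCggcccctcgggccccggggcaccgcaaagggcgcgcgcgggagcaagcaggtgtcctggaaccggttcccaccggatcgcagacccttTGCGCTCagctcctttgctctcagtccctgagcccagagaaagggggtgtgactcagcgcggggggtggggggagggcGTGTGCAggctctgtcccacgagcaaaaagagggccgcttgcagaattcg
There was 1 match in Mt1 and there were 3 in Mt2. This short core was common, at 21.4% of 32851 promoters, and 3 of the 20 acute phase and metallothionein genes with a promoter in the table held it (Fgg, Mt1 and Mt2).

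**Figure D3:**
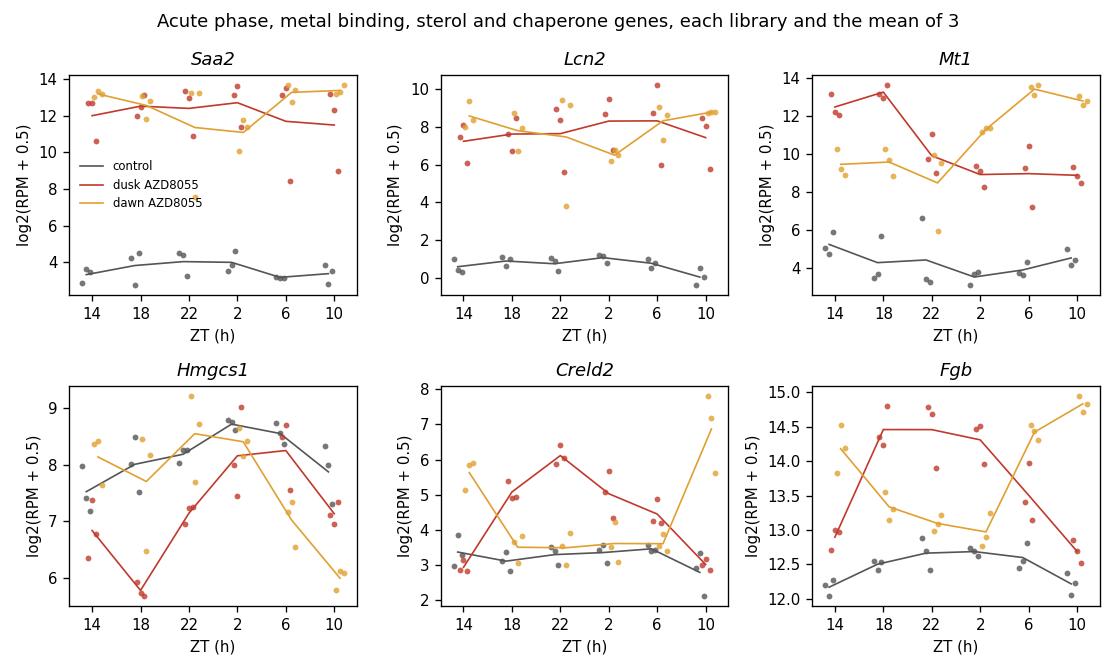
Levels of 6 genes as log2(RPM + 0.5) against ZT in order from dusk, with 1 point per library and a line through the mean of 3 libraries, for control (grey), dusk AZD8055 (red) and dawn AZD8055 (yellow). The dusk libraries stay above the controls at all times for Saa2, Lcn2 and Mt1, Hmgcs1 is lowest at ZT 18 in the dusk arm and at ZT 10 in the dawn arm, and Creld2 peaks at ZT 22 and ZT 10 in these arms.

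Among the genes lower throughout, mitochondrial ribosomal RNA stood out by abundance. mt-Rnr1 measured 2592, 2605 and 4057 RPM at ZT 14 against 19060.0, 20229 and 14648 RPM in control. The groups did not overlap, and the daily mean difference was -2.11 (SE 0.15, adjusted p = 4.8e-15). Mitochondrial rRNA and tRNA genes together had a median of 14481 RPM in the dusk arm and 48406 RPM in the controls, and mitochondrial protein-coding genes 105520.0 RPM and 133290.0 RPM. The summed small nucleolar RNA genes had 179 RPM and 362 RPM. Mitochondrial rRNA and tRNA and small nucleolar RNA lack the long poly(A) tail of mRNA that the kit primes on. The part of all these classes in the other differences was not tested.

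Major urinary protein genes, which encode male-biased secreted pheromone carriers under growth hormone control, had a lower median summed level. The 22 Mup genes summed to a median of 13105 RPM in the dusk arm and 22829 RPM in the controls. The sums ranged from 9314 to 23809 RPM in the dusk arm and from 11763 to 40465 RPM in the controls. These ranges overlap, and the sum was not tested. Reads of single Mup genes are uncertain because the copies are near-identical. Apob, the structural protein gene of very low density lipoprotein, was lower over the day, with a difference of -1.32 (SE 0.16, adjusted p = 9.7e-09). The chemokine gene Cxcl9, an interferon gamma target, fell by 2.06 (SE 0.20, adjusted p = 5.3e-11). Slco1b2, a bile acid and drug uptake transporter gene of hepatocytes, fell from a control level of 1242, 1589.9 and 1696 RPM at ZT 22 to 494, 733 and 956 RPM (-1.09, SE 0.22, adjusted p = 6.3e-04). Cyp7a1, the rate-limiting enzyme gene of bile acid synthesis, fell at ZT 14, with no call at the other times, (-1.95, SE 0.67, adjusted p = 0.038) and was not called without dusk ZT 14 replicate 1 (adjusted p = 0.083). Of 19 bile acid genes, 1 was higher and 8 were lower over the daily mean, where 24.3% of all genes were lower.

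**Figure D4:**
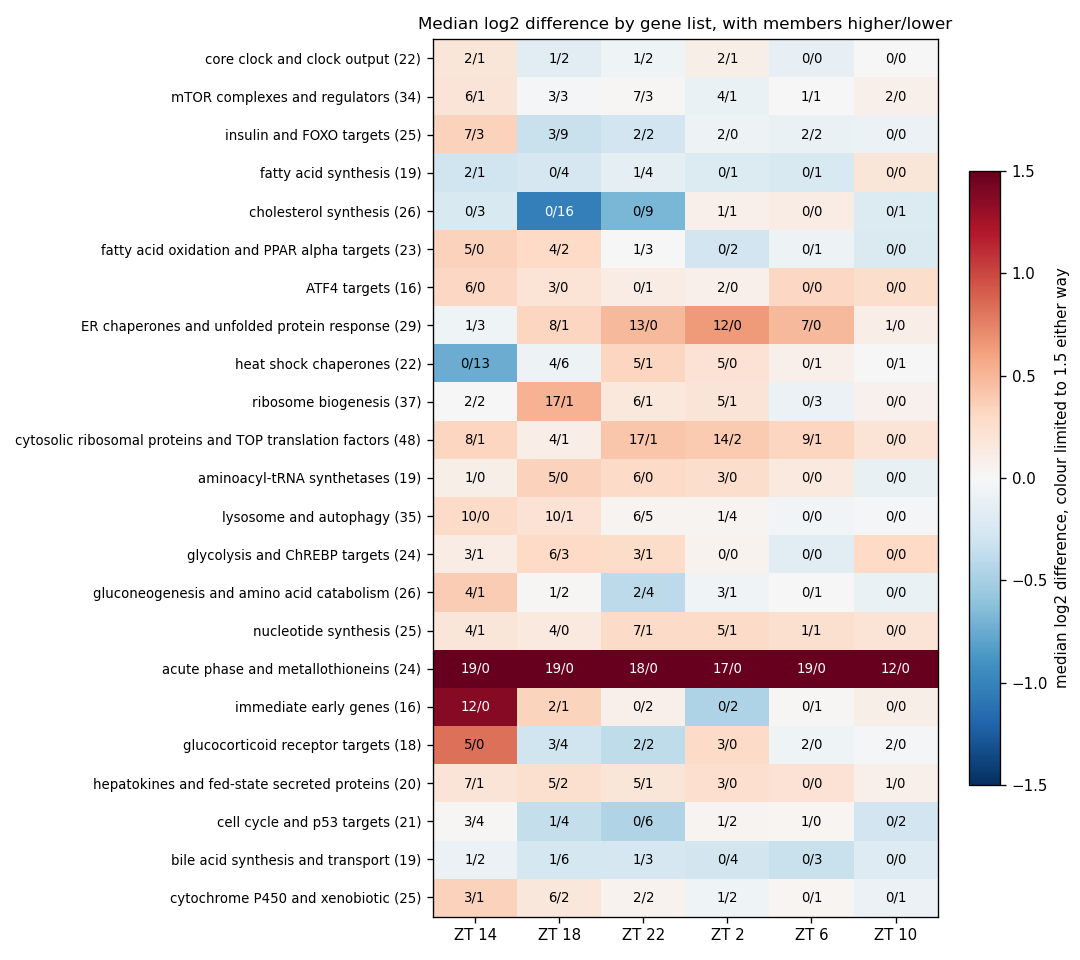
Median log2 difference between dusk AZD8055 and control for 23 gene lists (number of genes tested in parentheses) at 6 times in order from dusk, as colour, with the number of members called higher and lower written in each cell. The immediate early genes stand out at ZT 14, the cholesterol synthesis genes at ZT 18, the ER chaperones at ZT 22 and ZT 2 and the acute phase genes and metallothioneins at all times.

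Several lists remain. At ZT 14, 8.80% of all genes were higher and 8.39% lower, and the next counts are set against these shares. Gluconeogenesis and amino acid catabolism had 4 of 26 members higher and 1 lower at ZT 14, with the transaminase gene Got1 at 1.30 (SE 0.40, adjusted p = 0.021). Fatty acid oxidation had 5 of 23 higher and 0 lower. Among 25 xenobiotic genes 3 were higher and 1 lower, and the CAR target Cyp2b10 went from 37, 40.3 and 70.6 RPM to 443, 265 and 209.9 RPM (2.61, SE 0.44, adjusted p = 5.1e-05). Its dusk libraries were all above its controls at ZT 14. Among 20 hepatokine and fed-state genes 7 were higher and 1 lower. The leptin receptor gene Lepr was one of them, and at ZT 18 it measured 17, 58.3 and 42.1 RPM against 2.42, 5.57 and 5.71 RPM (2.88, SE 0.54, adjusted p = 1.6e-04), without overlap. Gdf15, a stress-induced hormone gene, rose by 1.94 (SE 0.70, adjusted p = 0.048) at ZT 14. Of 18 glucocorticoid receptor targets 5 were higher at ZT 14 and 0 lower, among them the metallothioneins, while Fkbp5 and Tsc22d3 had estimates of 0.11 and -0.38 that were not called. Without dusk ZT 14 replicate 1, 3.44% of all genes were higher at ZT 14 and 3.39% lower, and the counts were 1 higher and 0 lower for gluconeogenesis, 1 and 0 for fatty acid oxidation, 2 and 1 for the hepatokines and 3 and 0 for the glucocorticoid targets, and Got1 and Gdf15 were not called (adjusted p = 0.13 and 0.4). Over the daily mean 26.6% of all genes were higher and 24.3% lower. Nucleotide synthesis had 14 of 25 members higher and 4 lower over that mean, and the aminoacyl-tRNA synthetases 10 and 4 of 19. Over the same mean, cell cycle and p53 target genes had 2 of 21 higher and 5 lower.

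The daily rhythm was examined with a 24 h cosine in each arm. A rhythm was called for 3345 genes in the dusk arm (26.9%) and 699 in the control arm (5.62%). The rhythms of the arms differed for 742 genes (5.97%), of which 635 had the higher amplitude in the dusk arm (5.11%) and 107 the lower (0.861%). A response that fades over hours after a dose also has a 24 h component, and it cannot be told apart from a rhythm at 6 times.

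Clock genes were called for a difference in rhythm about as often as all genes, and a missing call does not show equal rhythms. Of 22 clock and clock output genes, 1 differed in rhythm, where 5.97% of all genes did, and the list's median amplitude was 1.17 in the dusk arm and 1.20 in the controls. Arntl, which encodes the clock activator BMAL1, had an amplitude of 1.48 after AZD8055 and 1.81 in control, Dbp, a clock output factor gene, 2.81 and 2.55, and the repressor gene Nr1d1 1.89 and 2.41. None of these differences was called (adjusted p = 0.7, 0.73 and 0.12). The exception was Per2, a period gene that also responds to feeding and temperature, with 0.34 against 1.17 (adjusted p = 0.032). Per2 was higher in the dusk arm at ZT 22 and ZT 2 (1.28, SE 0.36, adjusted p = 0.011 and 1.37, SE 0.36, adjusted p = 0.01). By level, Clock was lower at ZT 14 (-0.90, SE 0.19, adjusted p = 0.0012), and the clock-linked repressor genes Nfil3 and Nr1d2 were higher (1.68, SE 0.37, adjusted p = 0.0015 for Nfil3; 1.02, SE 0.36, adjusted p = 0.044 for Nr1d2). Nr1d2 was not called without dusk ZT 14 replicate 1 (adjusted p = 0.13).

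Gains in amplitude followed the lists above. Ppp1r3g had an amplitude of 2.94 after dusk AZD8055 and 0.96 in control, Creld2 1.54 and 0.14, and Mt1 2.31 and 0.66 (adjusted p = 4.1e-04, 1.2e-04 and 0.015). ER chaperones gained amplitude for 15 of 29 genes and immediate early genes for 8 of 16, with 0 and 0 losing it, where 5.11% and 0.861% of all genes did. Among the cholesterol synthesis genes 9 of 26 gained amplitude. Tsc22d3, a glucocorticoid target, lost it, from 0.92 to 0.19 (adjusted p = 0.0027), and so did Cirbp, a cold-inducible RNA-binding protein gene, from 0.75 to 0.18 (adjusted p = 0.015).

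**Figure D5:**
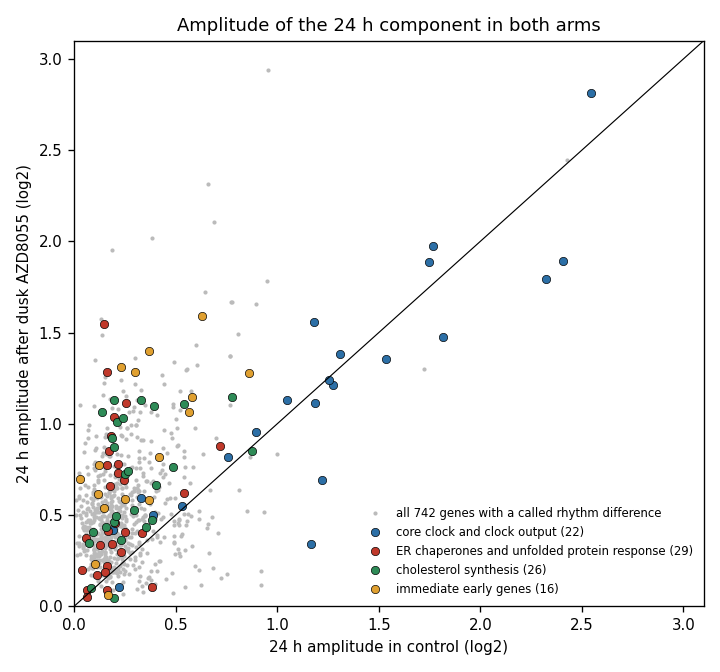
Amplitude of the fitted 24 h component on the log2 scale in the control arm (x axis) and the dusk AZD8055 arm (y axis), for the 742 genes whose rhythm differed (grey) and for all tested members of 4 lists (coloured), with the line of equal amplitude. Most grey points lie above the line, and the core clock genes lie along it, with a list median of 1.20 in control and 1.17 after AZD8055.

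Markers of other liver cells were among the called genes as well. Over the daily mean 7 of 12 Kupffer cell and macrophage markers were higher and 0 lower, where 26.6% and 24.3% of all genes were, and their summed level ran from 287 to 766 RPM in the dusk libraries and from 237 to 437 RPM in the controls. Without dusk ZT 6 replicate 2 the highest dusk sum was 680 RPM. The complement genes C1qa and C1qb rose by 0.75 (SE 0.15, adjusted p = 4.1e-05) and 0.48 (SE 0.11, adjusted p = 5.0e-04), while the Kupffer-specific Clec4f was at 0.18 and called on the deposited scale and without replicate 3, in no other setting run. Of 10 sinusoidal endothelium markers 6 were higher and 2 lower, with sums of 245 to 349.8 RPM against 216 to 298 RPM. Without dusk ZT 14 replicate 1 the highest dusk sum of these markers was 311 RPM. Both neutrophil markers tested, S100a8 and S100a9, were higher, with sums of 0.733 to 138 RPM against 0.228 to 3.78 RPM. The medians of these sums were 3.80 and 1.497 RPM, the highest value was that of dusk ZT 6 replicate 2, and without it the highest in the dusk arm was 12.8 RPM. Of 5 erythroid markers 3 were lower and 0 higher. The stellate cell, cholangiocyte and lymphocyte markers counted 1, 1 and 0 higher and 2, 0 and 0 lower of 9, 2 and 1 tested. The part of these cells in the acute phase and immediate early differences was not tested.

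Dusk and dawn injection were compared directly with the drug in both arms. At ZT 14, 2 h after lights off, 2021 genes differed between them (16.3%), of which 1022 were higher in the dusk arm, while over the daily mean 549 did (4.42%), 227 higher (1.83%) and 322 lower (2.59%) in the dusk arm. Without dusk ZT 14 replicate 1 the number that differed over the daily mean was 288, and with the 36 libraries of both drug arms alone it was 141. Igfbp1 was higher in the dusk arm at ZT 14 by 5.78 (SE 0.75, adjusted p = 3.4e-07) and Junb by 4.06 (SE 0.35, adjusted p = 7.7e-11). ER chaperones were lower there for 17 of 29 genes and higher for 1, where 8.04% and 8.22% of all genes were. Acute phase genes were high in both arms: the daily mean differences of Saa2 and Lcn2 between dusk and dawn were -0.34 and -0.15 and were not called. At ZT 2 the dawn arm held 2262, 2662 and 3159 RPM of Igfbp1, 79.3, 210.3 and 209 RPM of Ppp1r3g and 19.3, 18.6 and 22.8 RPM of Mid1ip1. Both drug arms were compared with the same control libraries, so these values are set side by side and no overlap was computed.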

How the data were processed

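Liver RNA of 282 libraries was sequenced from 3′ ends, and the 54 libraries of the 3 arrhythmically fed wild-type arms (control, dawn and dusk AZD8055) were analysed. Reads were aligned to mm10 (GRCm38.p6) with STAR 2.7.3a and handled with SAMtools, per the submitters' processing notes. Which program and annotation were used for counting is not stated in the sources used here. The authors deposited a signal per gene, in which all values of a library were whole multiples of 1 step within 0.01 read, so that reads and depth could be recovered from it. The deposited scale was replaced by TMM factors (edgeR 4.0.16). limma 3.58.1 (R 4.3.3) with trend was fitted to log2(RPM + 0.5) with 18 group means, 36 residual degrees of freedom and no covariates. Of 15907 genes, the 12428 that averaged 1 RPM or more over the 234 libraries of the table were tested, and p-values were adjusted by Benjamini-Hochberg over all of them at a threshold of 0.05. Rhythms were fitted with a 24 h cosine and sine in the same model, and an amplitude is the distance from mean to peak in log2 units. Groups came from the treatment, feeding and time labels. The labels state biological replicates, 3 per group, and a p-value measures the spread between them.

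The members and gene lists were chosen with earlier results of these data known. Lists held 651 genes, of which 595 were tested, in 23 pathway and 8 cell type lists. Named genes were clock and mTOR genes, up to 6 members of each list with the smallest adjusted p, and the called genes of at least 5 RPM with the largest differences at each time, over the day or in amplitude. Outside this rule Irs1, Trib1, Sik1, Pck1, Asns, Atf4, Fasn, Hspa1a, Sqle, Insig1, Srebf2, Heatr1, Manf, Dnajb9, Xbp1, Apcs, Itih4, Hp, Cp, Hamp, Gdf15, Clec4f, the genes with a promoter motif and those of the closing section were chosen after their values were seen. Some genes that the rule takes are not reported here. Alternatives were DESeq2 size factors, no filter, pseudocounts of 0.1 and 2, edgeR and DESeq2 1.42.0 on the recovered reads, the deposited scale, the compared arms alone, a replicate block and leaving out each replicate. Leaving out single libraries (dusk ZT 14 replicate 1, dusk ZT 6 replicate 2, control ZT 22 replicate 2) was added after seeing the data. The limma fit, and edgeR for the differences at ZT 14 and ZT 2, were tested on simulated data in which libraries were drawn independently. The other alternatives were not tested in this way. Promoters came from RefSeq's GRCm38.p6. A further table of the series, on tunicamycin, was not used.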

Additional observations from a re-analysis of the deposited data

Results flagged for a closer look

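The effect of dusk AZD8055 differed between sampling times, by a test of the difference itself. The arm by time interaction was called for 686 genes (5.52%). The ZT 14 difference departed from the mean difference at the other 5 times for 493 genes (3.97%), and for 276 without dusk ZT 14 replicate 1. Among the genes described above this departure was 6.64 for Ppp1r3g, 5.97 for Igfbp1, 3.22 for Junb and 2.52 for Ppargc1a on the log2 scale. It was -3.35 for Hspa1b, -3.16 for Angptl8, -2.39 for Mid1ip1 and -1.97 for Creld2.

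The arms differed in their 24 h component for 742 genes. Dusk and dawn injection differed at ZT 14 for 2021 genes and in the daily mean for 549.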

How the results depend on the processing

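Of 138 single-gene values, 94 kept their side of the threshold under each setting run and 41 lost their call under at least 1. The number that changed direction while called, in the main fit or under a setting, was 0. A change of sign in a value that stayed uncalled was not counted. Asns at ZT 14, at 0.057 in the main fit, ranged from -0.38 to 0.25 and is an example. Numbers of called genes stayed within 1.5 times under the other size factors, filter, pseudocounts, scale and tools, except that DESeq2 on recovered reads called 462 genes at ZT 10. With the 36 libraries of both drug arms alone, the daily mean difference between dusk and dawn was called for 141 genes. Without dusk ZT 14 replicate 1 the counts were 848 at ZT 14, 276 for ZT 14 against the other times and 288 for dusk minus dawn over the day, and without dusk ZT 6 replicate 2 the count at ZT 6 was 194. These losses are larger than for the removal of control ZT 22 replicate 2, after which 2147 genes were called at ZT 22. Fitted in its own 18 libraries, a rhythm was called for 2453 genes in the dusk arm and 997 in the control arm.

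Leaving out 1 replicate number in all arms leaves 2 libraries per group. Over these settings and the 3 single libraries left out, counts ranged from 4508 to 6348 for the daily mean, 510 to 2228 at ZT 14, 772 to 2494 at ZT 18, 767 to 2583 at ZT 22, 411 to 1655 at ZT 2, 67 to 804 at ZT 6 and 19 to 387 at ZT 10. They ranged from 86 to 680 for the interaction, 89 to 500 for ZT 14 against the other times, 108 to 738 for the rhythm difference, 1825 to 3448 and 206 to 761 for the dusk and control rhythms, and 4 to 608 over the day and 978 to 2095 at ZT 14 for dusk minus dawn. The upper ends came from leaving out a single library. Without replicate 2, 84.2% of the calls at ZT 10 and 83.6% at ZT 6 were higher, against 32.7% and 45.0% with all libraries, so the direction of the calls at these times rests on few libraries. The depth, at least 6567370 reads, limits genes near 1 RPM.

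Replicate numbers did not pair the samples between the arms, where 4 of 18 same-numbered pairs had a correlation of deviations over 0.1, with a median of 0.028. Within the dusk arm, same-numbered libraries of different times had a median correlation of 0.191 against -0.095 for different numbers, and within the control arm the medians were -0.00012 and -0.012. With a replicate block the counts were 6512 over the day, 2350 at ZT 14, 458 at ZT 10 and 894 for the rhythm difference. No single-gene value changed its call with the replicate block. The block is a replicate effect common to all arms, so it cannot take up a correlation confined to the dusk arm. Whether the calls depend on that correlation was not tested.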

Other observations

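Genes that interferon gamma induces, with the MHC class II genes, were lower after dusk AZD8055 in the same libraries in which the acute phase genes were higher. This list of 27 tested genes was chosen after its values were seen, so its counts are a description. Over the daily mean 0 were higher and 20 lower, where 26.6% and 24.3% of all genes were, with a list median of -0.72 against 0.015 for all genes. At single times the number lower was 2 at ZT 14, 5 at ZT 18, 13 at ZT 22, 17 at ZT 2, 2 at ZT 6 and 2 at ZT 10, where 8.39%, 8.49%, 9.78%, 4.73%, 3.17% and 1.66% of all genes were lower. H2-Aa, which encodes an MHC class II chain of antigen-presenting cells, measured 21.1, 20.7 and 29.4 RPM in the dusk libraries at ZT 2 and 43.6, 92.6 and 146 RPM in the controls (-1.82, SE 0.43, adjusted p = 0.0042). Every dusk library was below every control at that time. Ciita, which encodes the transcriptional master regulator of that class, had a daily mean difference of -1.03 (SE 0.17, adjusted p = 4.4e-06). Irf1 and Nlrc5, which interferon gamma also induces, were at -0.023 and 0.12 and were not called. Kupffer cell and macrophage markers were higher in the same comparison, with 7 of 12 called, and the part of these cells was not tested.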
